A study of Drosophila melanogaster with 30 samples.

Results

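The elements described here are the reporter inserts named for hedgehog (hh), gooseberry (gsb) and naked cuticle (nkd) in a pooled screen of Drosophila melanogaster embryos. They were chosen by name, as every insert whose name begins with hh, gsb or nkd as its whole first word. Of 591 elements listed over both rounds of the screen, 9 fit: 4 of hh, 2 of gsb and 3 of nkd. All 9 were listed in round 1 among 576 elements, and 3 of them, 1 per gene, were listed again in round 2 among 188.

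The study placed candidate silencers beside a strong, ubiquitous enhancer that drives GFP, and asked which inserts lie in mesodermal cells whose GFP is reduced. Male flies carrying random picks of the reporter pool were crossed to twi:CD2 virgin females, so that every embryo of every group could carry a reporter and the cell surface protein CD2, expressed under the mesodermal gene twist. Embryos were collected over 2.25 h and aged for 11 h at 18 °C, cells were stained with an antibody to CD2, and inserts were recovered by PCR from their genomic DNA. The sorted populations were low-GFP CD2+ cells (mesodermal cells with reduced GFP, named GFP-CD2+ in round 1 and CD2+GFPred in round 2), CD2+ cells (mesodermal cells of any GFP level) and, in round 1, CD2- cells (the remaining cells of the embryo), each with 6 libraries. The 6 libraries of a population come from 6 collection days, days 1 to 3 in experiment 1 and days 4 to 6 in experiment 2 of a round, and p-values measure the spread between these days. The low-GFP cells are a part of the CD2+ population, and CD2 marks the cells in which the twist reporter was on. The libraries count DNA and hold no transcripts, so the sorts could not be checked against marker genes. More cells carrying an insert, more flies carrying it in the cages of a day, and easier amplification of it all give more reads and cannot be told apart in 1 library.

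The 3 genes act in the circuit that keeps segment borders in the fly embryo. hh encodes a secreted signal made by cells of the posterior compartment of each segment in the ectoderm. gsb encodes a transcription factor with a paired domain and a homeodomain that helps to keep wingless, the main Wnt gene of the embryo, switched on, and nkd encodes an intracellular antagonist that binds Dishevelled and is itself induced by Wnt signalling. The inserts are pieces of DNA from such genes, tested for what they do to a reporter, and their counts say nothing of how strongly the genes themselves were expressed.

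Each insert was read through a barcode, a 12-base tag that stands for the element in the counts. The barcodes of the hh elements (hh lies on chromosome arm 3R) and the nkd elements (nkd lies on 3L) are shown because each value of an hh or nkd element below comes from reads assigned to its tag. All bases are in capitals, since the whole tag is matched, and each differs from every other barcode of its length in the pool at 3 or more positions.
hh_4075: TCCTGCTACGCT
hh_alpha_fragment_(ic-CRE): GTGCTAAGACTG
hh_bar3L2: CTAGGCCTTGCT
hh_hhf4F: TAGCAAGGCCTA
nkd_8756: CGTAGCAGGCAA
nkd_IntE_255: AGCTTGGTCTTC
nkd_UpE2: CCATTGCCTGCT
The closest pairs of tags in the pool that involve hh_alpha_fragment_(ic-CRE), hh_hhf4F or nkd_UpE2 differ at 3 positions, and those that involve the other tags shown differ at 4.

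Depth was similar across populations, with 2928510 to 5488936 reads per library in round 2 and 3399506 to 5934098 in round 1. Levels are given as CPM, the counts of an element relative to a fixed library total, after TMM scaling, which sets libraries to a common scale through their middle elements. The TMM factor was lowest in the low-GFP library of day 4 of round 1, at 0.360, against 0.668 to 1.07 in the other low-GFP libraries of that round, 0.964 to 1.30 in its CD2+ libraries and 1.06 to 1.31 in its CD2- libraries. A low factor raises every CPM of its library, so fitted calls that were lost without that library are pointed out. The CPM ranges, the daily differences and the tests on them all include it. The elements described here made up 2.77 to 4.64% of the reads of low-GFP libraries in round 1, against 2.10 to 6.02% in CD2+ and 1.98 to 5.49% in CD2- libraries. PCR reads without molecular identifiers are not separate molecules, and limits from counts cover counting error only.

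In round 1, hh elements were called in both directions in low-GFP cells, gsb in 1 direction (higher) and nkd in 1 (lower). Of the 9 elements, 7 passed the filter on low counts. hh_4075 and gsb_fragIV were higher in low-GFP cells than in both controls together, and hh_alpha_fragment_(ic-CRE), nkd_8756 and nkd_IntE_255 were lower. gsb_GLE and hh_bar3L2 did not pass the test. These 5 of 7 stood against a background of 26.0% of all 358 elements tested that passed (edgeR quasi-likelihood test, Benjamini-Hochberg adjusted p under 0.05), 15.9% higher and 10.1% lower. Over all elements the split was 57 higher and 36 lower, against 63 and 23 with DESeq2's size factors, 47 and 56 with total counts and 67 and 4 when the E. coli control elements set the scale. The median log2 fold change was -0.70 over the 7 elements and -0.61 over all elements tested. With the E. coli elements setting the scale, the 8 E. coli elements tested still had a median of -1.12, from -5.07 to 3.10. That scale therefore does not put each E. coli element at no change. hh_hhf4F and nkd_UpE2 had 0 counts in each of the 18 libraries, which allows up to 0.399 to 1.71 CPM per library on the TMM scale (3 counts), and they were measured in round 2 only.

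**Figure D1:**
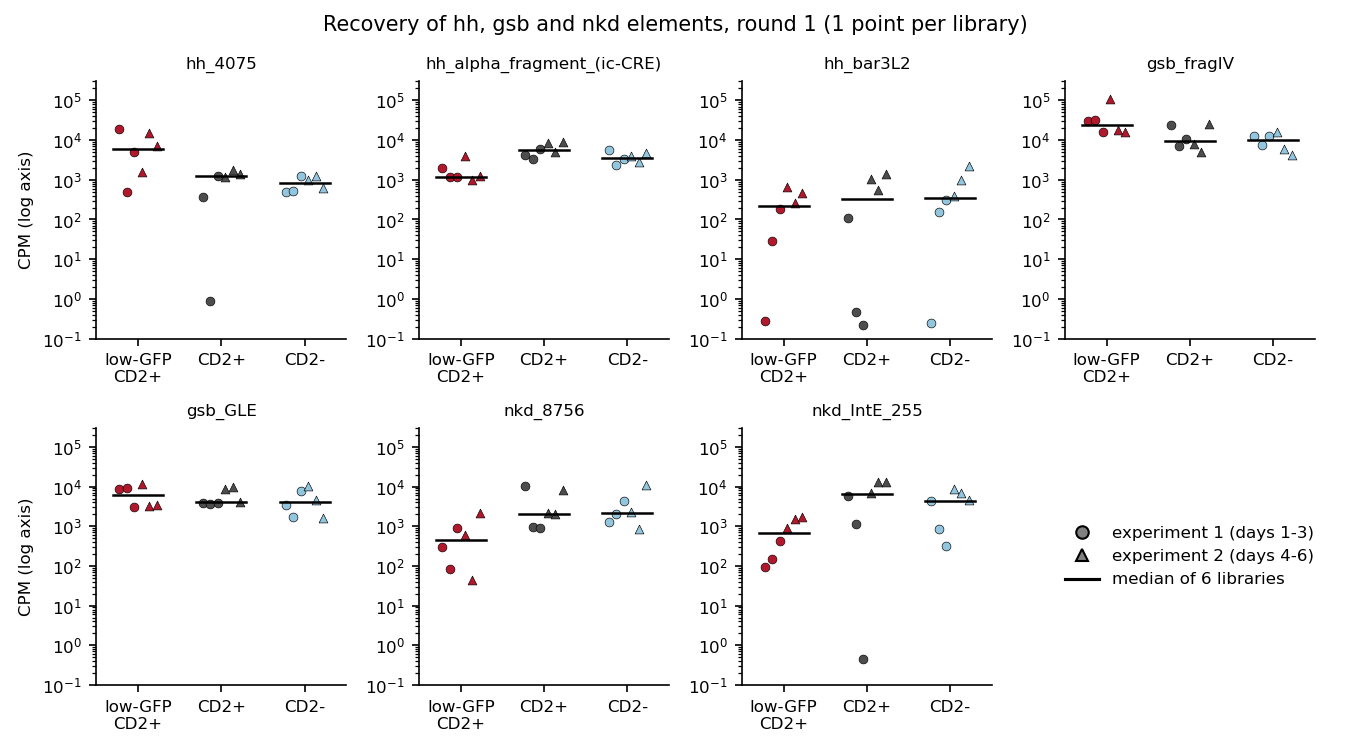
Level of each of the 7 hh, gsb and nkd elements that passed the count filter in round 1, in CPM on a log axis, with 1 point per library (circles, experiment 1; triangles, experiment 2; bars, medians of 6 libraries). hh_4075 and gsb_fragIV have their highest points among the low-GFP libraries, and hh_alpha_fragment_(ic-CRE) and both nkd elements have medians below those of the controls there. A single CD2+ library near 0 stands far below the rest for hh_4075 and for nkd_IntE_255. For hh_bar3L2, libraries of every population lie near 0.

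The hh elements, which are named for the signal itself, lay on both sides of the controls. hh_4075 ran from 502 through a median of 6067 to 19434 CPM in low-GFP libraries, against 0.907 through 1219 to 1787 CPM in CD2+ libraries and 488 through 811 to 1249 CPM in CD2- libraries. The low-GFP libraries of days 1, 3, 5 and 6 lay above every control library, those of days 2 and 4 lay within the range of the controls, and the groups therefore overlapped. The lowest CD2+ value, on day 2, rests on 4 reads. On each of the 6 days the low-GFP library was above the log mean of that day's controls, by 0.52 to 5.51 on the log2 scale. On day 2, however, the low-GFP library, at 502 CPM, was below the CD2- library, at 537 CPM. That day's difference of 4.22 therefore rests on the CD2+ library with 4 reads.

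The fitted change of hh_4075 was 3.22 on the log2 scale (SE 0.80), a 9.33-fold higher level in low-GFP cells than in both controls (edgeR adjusted p = 0.00505). It was 3.38 in experiment 1 alone (edgeR adjusted p = 0.136) and 2.95 in experiment 2 alone (0.0189). Without day 1 the call was lost (edgeR adjusted p = 0.0637), and without the low-GFP library of day 4 the change was 3.47 (0.00404). In the authors' deposited table for experiment 1, the log2 fold change of hh_4075 was 3.52 with an adjusted p of 0.000153. The authors' deposited table for experiment 2 gives 2.76 and 0.00303.

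hh_alpha_fragment_(ic-CRE) went the other way. It ran from 981 through 1198 to 4012 CPM in low-GFP libraries, against 3373 through 5476 to 8853 CPM in CD2+ libraries and 2384 through 3611 to 5617 CPM in CD2- libraries. All low-GFP libraries except that of day 4 were below every control library. As a plain share of reads, the low-GFP library of day 4 held 0.144% of this element and stood with the others of its group, which held 0.0709 to 0.130%, against 0.438 to 1.08% in CD2+ and 0.312 to 0.661% in CD2- libraries.

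The fitted log2 change of hh_alpha_fragment_(ic-CRE) was -1.46 (SE 0.41), a 2.75-fold lower level in low-GFP cells (edgeR adjusted p = 0.0118), and the low-GFP library was below the log mean of its day's controls on 6 of 6 days. On day 4 the low-GFP library, at 4012 CPM, was level with the CD2- library, at 3926 CPM. The fitted change was -1.87 in experiment 1 alone and -1.34 in experiment 2 alone (edgeR adjusted p = 0.0796 and 0.229), and -1.85 without the low-GFP library of day 4. The call was lost without day 3 or day 6 (edgeR adjusted p up to 0.0774), and the change was -0.27 (0.819) when the E. coli elements set the scale of each library. The authors' deposited tables give -1.58 and -1.21 for the 2 experiments, with adjusted p-values of 0.260 and 0.502.

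hh_bar3L2, named for the bar3 allele of hh that affects the eye, was the least even of the hh elements. It ran from 0.275 through 224 to 677 CPM in low-GFP libraries, against 0.222 through 328 to 1377 CPM in CD2+ libraries and 0.239 through 350 to 2282 CPM in CD2- libraries. Its lowest values rest on 1 or 2 reads and lie in all 3 populations of experiment 1. The groups overlapped almost fully, and the fitted log2 change was -0.70 (SE 1.32, edgeR adjusted p = 0.733), an error too large to show a change of the size seen for hh_alpha_fragment_(ic-CRE).

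Elements of one gene were also set against each other within each library, where the scaling cancels. hh_4075 minus hh_alpha_fragment_(ic-CRE) averaged 4.65 ± 1.98 (SD, n = 6 days) as a difference of log2 changes. It was positive on 6 of 6 days, from 1.06 on day 4 to 6.83 on day 1, with an exact two-sided sign-flip permutation p = 0.03125, the smallest that 6 days allow. Over the 5 pairs of elements compared, the adjusted p was 0.156, so the pair did not pass after correction. hh_4075 minus hh_bar3L2 averaged 3.41 ± 3.79 and was positive on 5 of 6 days (exact permutation p = 0.0938, adjusted 0.234). hh_alpha_fragment_(ic-CRE) minus hh_bar3L2 averaged -1.24 ± 2.65 and was negative on 5 of 6 days (exact permutation p = 0.281, adjusted 0.352).

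Of the gsb elements, named for the transcription factor, gsb_fragIV passed the test and gsb_GLE did not. gsb_fragIV, a fragment of gsb regulatory DNA, ran from 15594 through 24073 to 109404 CPM in low-GFP libraries, against 5066 through 9469 to 25147 CPM in CD2+ libraries and 4207 through 9993 to 15798 CPM in CD2- libraries. The low-GFP libraries of days 1, 2 and 4 lay above every control library, and those of days 3, 5 and 6 lay within the range of the CD2+ libraries. The highest value is that of day 4, the library with the low scaling factor. As a plain share of reads it held 3.94% of gsb_fragIV, still the highest of the round, against 1.30 to 2.25% in the other low-GFP libraries, 0.584 to 2.72% in CD2+ and 0.447 to 2.04% in CD2- libraries.

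The fitted log2 change of gsb_fragIV was 1.66 (SE 0.48), a 3.16-fold higher level in low-GFP cells than in both controls (edgeR adjusted p = 0.0134), and low-GFP libraries were above the log mean of their day's controls on 6 of 6 days. On day 6 the CD2+ library, at 25147 CPM, was above the low-GFP library, at 16262 CPM. Without the low-GFP library of day 4 it was 0.90 (edgeR adjusted p = 0.120), and the call was also lost with all libraries of day 2 or of day 4 left out (up to 0.0941). It was 0.71 in experiment 1 alone and 2.18 in experiment 2 alone (edgeR adjusted p = 0.361 and 0.115), and 0.69 with libraries scaled to total counts (0.175). The authors' deposited tables give gsb_fragIV 0.92 (adjusted p = 0.239) in experiment 1 and 2.37 (2.17e-05) in experiment 2.

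gsb_GLE, which carries the name of the gooseberry late element, ran from 3096 through 6001 to 11571 CPM in low-GFP libraries, against 3576 through 3990 to 9994 CPM in CD2+ libraries and 1602 through 4033 to 10395 CPM in CD2- libraries. The highest low-GFP value is that of day 4, the library with the low scaling factor. As a plain share of reads that library held 0.417% of gsb_GLE, against 0.240 to 0.650% in the other low-GFP libraries. The 3 groups lay over each other, and the low-GFP library was above the log mean of its day's controls on 4 of 6 days. Its log2 change was 0.37 (SE 0.46, edgeR adjusted p = 0.605), and it was -0.51 with libraries scaled to total counts (0.421). gsb_GLE minus gsb_fragIV averaged -1.16 ± 1.43 (SD, n = 6 days) and was negative on 5 of 6 days (exact permutation p = 0.156, adjusted 0.260), so a difference between the gsb elements was not shown.

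Both nkd elements measured in round 1 were recovered less often from low-GFP cells. nkd_8756 ran from 43.7 through 451 to 2213 CPM in low-GFP libraries, against 901 through 2088 to 10076 CPM in CD2+ libraries and 844 through 2217 to 11208 CPM in CD2- libraries. The low-GFP libraries of days 1, 2, 4 and 5 were below every control library, and each of the 6 was below the log mean of its day's controls, with log2 differences of -4.90 to -1.09. On day 3 the low-GFP library, at 914 CPM, was level with the CD2+ library, at 901 CPM. The fitted log2 change was -2.56 (SE 0.88), a 5.88-fold lower level (edgeR adjusted p = 0.0392), and it was -3.06 in experiment 1 alone and -2.19 in experiment 2 alone (0.136 and 0.348). The call was lost without any single one of days 1 to 4 (edgeR adjusted p up to 0.121), without the low-GFP library of day 4 (0.0767), with DESeq2's size factors (0.0720) and with read 2 counts (0.0519), and the change was -1.66 (0.237) on the E. coli scale.

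nkd_IntE_255, whose name follows that of an intronic Wnt-responsive element of nkd, ran from 91.9 through 670 to 1679 CPM in low-GFP libraries, against 0.444 through 6331 to 13239 CPM in CD2+ libraries and 314 through 4408 to 8682 CPM in CD2- libraries. Low-GFP libraries were below the log mean of their day's controls on 5 of 6 days. The exception is day 3, where the CD2+ library held 2 reads of the element and the low-GFP library 2049. On that day the low-GFP library, at 437 CPM, was also above the CD2- library, at 314 CPM. The fitted log2 change was -2.91 (SE 0.98), a 7.52-fold lower level (edgeR adjusted p = 0.0338), with -3.44 in experiment 1 alone and -2.47 in experiment 2 alone (0.316 and 0.0202).

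The call of nkd_IntE_255 was lost with collection day as a block (log2 change -2.28, edgeR adjusted p = 0.172), when any of days 1, 2, 4, 5 or 6 was left out (up to 0.186), without the low-GFP library of day 4 alone (0.0685), with DESeq2's size factors (0.0622), without the experiment term (0.0871), and on the E. coli scale (-1.998, 0.170). In the authors' deposited tables nkd_IntE_255 had -3.39 in experiment 1 (adjusted p = 0.0194) and -2.45 in experiment 2 (0.198). The same authors' deposited tables give nkd_8756 -2.75 (0.0610) and -2.20 (0.518). nkd_8756 minus nkd_IntE_255 averaged -1.002 ± 2.86 (SD, n = 6 days) and was negative on 3 of 6 days (exact permutation p = 0.4375, adjusted 0.4375).

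**Figure D2:**
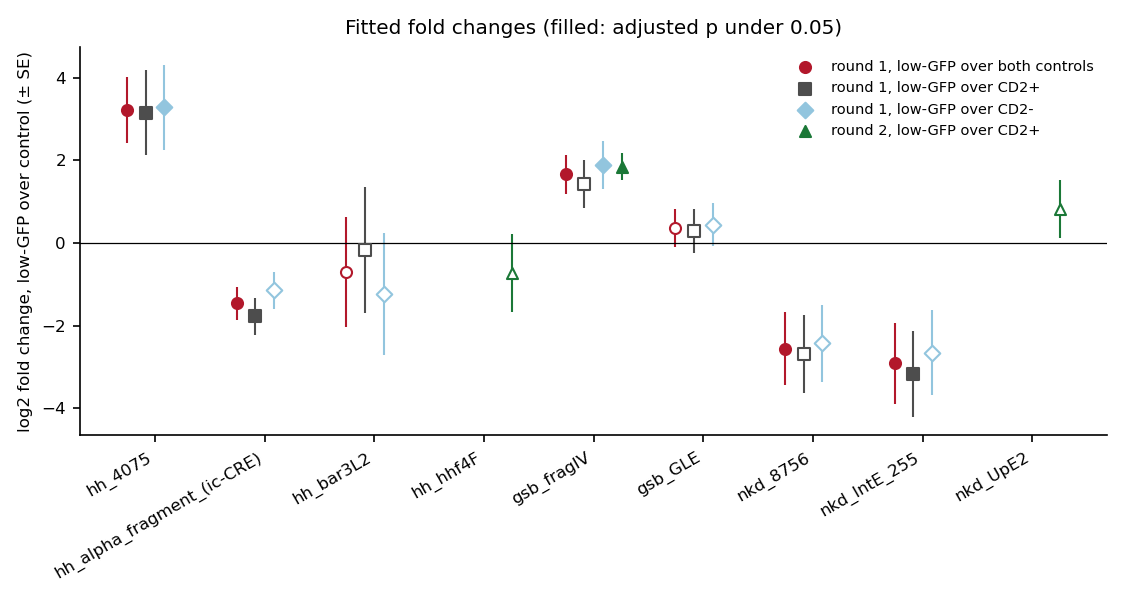
Fitted log2 fold change of each hh, gsb and nkd element, low-GFP over control, with its standard error, for round 1 against both controls, against CD2+ and against CD2- and for round 2 against CD2+; filled symbols passed at an adjusted p under 0.05. hh_4075 lies near 3 in each round 1 comparison, and both nkd elements of round 1 lie between -3.17 and -2.43. gsb_fragIV is the one element tested in both rounds. It passed against both controls and CD2- but not against CD2+ in round 1, and against CD2+ in round 2.

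Against CD2+ cells alone, which differ from the low-GFP cells in GFP level within the mesodermal sort, 3 of the 7 elements passed, with 20.7% of all elements as background (12.3% higher, 8.38% lower). hh_4075 was higher in low-GFP cells, with a log2 change of 3.16 (SE 1.04, edgeR adjusted p = 0.0365). hh_alpha_fragment_(ic-CRE) was lower, with -1.77 (SE 0.45, 0.00814), and nkd_IntE_255 was lower, with -3.17 (SE 1.05, 0.0377). gsb_fragIV had 1.43 (SE 0.58, 0.0895) and nkd_8756 had -2.69 (SE 0.95, 0.0542), both short of the threshold. With collection day as a block, hh_4075 (edgeR adjusted p = 0.0698) and nkd_IntE_255 (0.200) no longer passed and nkd_8756 did (0.0127). These 3 calls also changed when days were removed, and the cause was not tested. For hh_4075, leaving out any single one of days 1, 3, 4, 5 or 6 ended the call (largest edgeR adjusted p 0.177). Its log2 change was 3.79, 3.43 and 3.37 without days 3, 4 and 6, above that of the main fit. It was 2.34 and 3.09 without days 1 and 5, below that of the main fit. nkd_IntE_255 missed the threshold with any single one of days 1, 2, 4, 5 or 6 removed (largest edgeR adjusted p 0.198). It also missed the threshold without the low-GFP library of day 4 (0.0688), with DESeq2's size factors (0.0712) and without the experiment term (0.0903). hh_alpha_fragment_(ic-CRE) no longer passed once day 3 or day 6 was removed (largest edgeR adjusted p 0.0853). With total counts 0 elements were higher and 3 lower: hh_4075 was lost (2.65, edgeR adjusted p = 0.0778) and nkd_8756 passed (0.0430). On the E. coli scale 2 were higher and 0 lower: gsb_fragIV passed (2.68, 0.0424), and hh_alpha_fragment_(ic-CRE) (-0.81, 0.506) and nkd_IntE_255 (0.139) were lost. With DESeq2's size factors gsb_fragIV passed as well (1.70, edgeR adjusted p = 0.0469). Over all elements the split was 44 higher and 30 lower, against 53 and 22 with DESeq2's size factors, 39 and 48 with total counts and 52 and 6 on the E. coli scale.

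Against CD2- cells alone, 2 of the 7 passed, with 21.2% of all elements as background (13.4% higher, 7.82% lower). gsb_fragIV was higher in low-GFP cells, with a log2 change of 1.89 (SE 0.59, edgeR adjusted p = 0.0289), and so was hh_4075, with 3.29 (SE 1.03, 0.0295). hh_alpha_fragment_(ic-CRE) had -1.15 (SE 0.45, 0.0776), nkd_8756 had -2.43 (SE 0.94, 0.0762) and nkd_IntE_255 had -2.65 (SE 1.03, 0.0776). Both control comparisons share the low-GFP libraries. With collection day as a block, hh_4075 (edgeR adjusted p = 0.149) no longer passed, while hh_alpha_fragment_(ic-CRE) (0.0421) and nkd_8756 (0.0158) did, and without the low-GFP library of day 4 gsb_fragIV had 1.13 (0.112). The call of gsb_fragIV was lost without any single one of days 1, 2, 4 or 5 (edgeR adjusted p up to 0.0790), and that of hh_4075 without any single one of days 1, 4, 5 or 6 (up to 0.163). With total counts both calls were lost (gsb_fragIV 0.83, edgeR adjusted p = 0.195; hh_4075 2.59, 0.0755), while hh_alpha_fragment_(ic-CRE) (-2.02, 0.00179) and nkd_IntE_255 (-3.17, 0.0421) passed as lower. Over all elements the split was 48 higher and 28 lower, against 51 and 17 with DESeq2's size factors, 36 and 47 with total counts and 55 and 2 on the E. coli scale.

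Between the control sorts themselves, CD2+ against CD2-, 0 of the 7 elements passed by edgeR's quasi-likelihood test, and 0 of them had an unadjusted p under 0.05. The background was 0.0%, with 6 of all 358 elements at an unadjusted p under 0.05. DESeq2 called 0 of the 7 as well, beside 2 higher and 1 lower over all 358 elements. The log2 changes of the 7 ran from -1.07 (hh_bar3L2) to 0.63 (hh_alpha_fragment_(ic-CRE)). No element of hh, gsb or nkd was shown to differ between mesodermal and remaining cells when GFP level was not part of the sort, and the standard errors of 0.44 to 1.51 leave room for changes of that size.

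The 3 elements measured in round 2, in a smaller pool, allow gsb_fragIV to be compared with itself. It ran from 34281 through 58014 to 86828 CPM in low-GFP libraries, against 9863 through 14503 to 24805 CPM in CD2+ libraries. The groups did not overlap, but the share of all tested elements with groups apart was not counted, so this gap has no background. The mean of gsb_fragIV was 58751 ± 23495 CPM in low-GFP and 16292 ± 6713 CPM in CD2+ libraries (SD, n = 6 each). Of the 3 elements it was the 1 that passed, with 14.2% of the 155 elements tested as background (9.03% higher, 5.16% lower). Its log2 change was 1.84 (SE 0.33), a 3.59-fold higher level in low-GFP cells (edgeR adjusted p = 0.00193), with 1.80 in experiment 1 alone and 2.04 in experiment 2 alone (0.0653 and 0.0381).

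The round 2 change of gsb_fragIV varied little, from 1.49 to 2.27 over the 6 days and from 1.73 to 1.96 when 1 day at a time was left out, with edgeR adjusted p up to 0.0175. It was 1.33 with total counts (edgeR adjusted p = 0.00353) and 2.73 on the E. coli scale (8.19e-05). Over all elements the split was 14 higher and 8 lower, against 8 and 17 with total counts and 28 and 3 on the E. coli scale. The authors' deposited tables give gsb_fragIV 1.70 (adjusted p = 0.00150) and 2.004 (3.64e-18) for the 2 experiments of round 2. Against round 1, where the mean daily difference from CD2+ was 1.32 ± 1.57, that of round 2 was 1.85 ± 0.32 (SD, n = 6 days each), a difference of 0.52 (exact two-sided permutation p = 0.470). Relative to the E. coli elements of each pool, the difference between rounds was 0.26 (exact permutation p = 0.693).

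**Figure D3:**
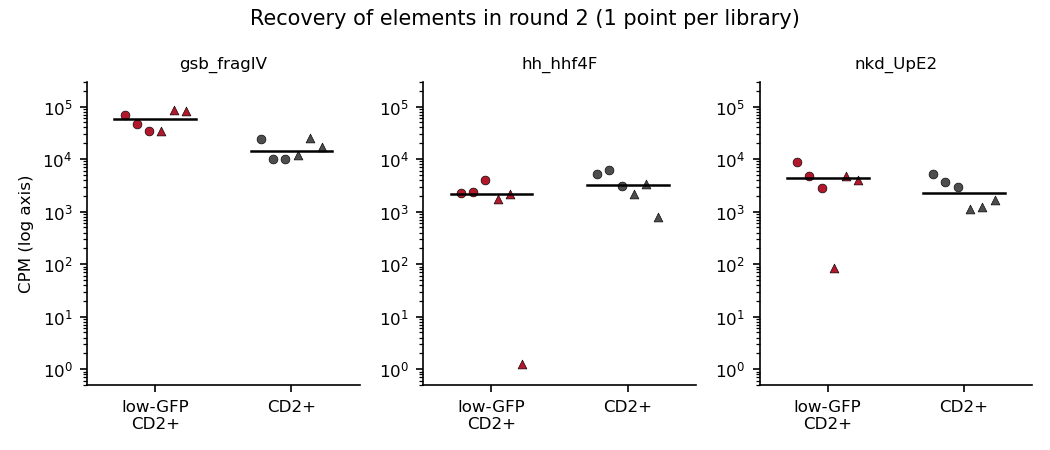
Level of gsb_fragIV, hh_hhf4F and nkd_UpE2 in round 2, in CPM on a log axis, with 1 point per library (circles, experiment 1; triangles, experiment 2; bars, medians of 6 libraries). The low-GFP libraries of gsb_fragIV, 34281 CPM and above, lie over all CD2+ libraries, whose highest is 24805 CPM. The share of all tested elements with groups apart was not counted, so this gap has no background. For hh_hhf4F and for nkd_UpE2, 1 low-GFP library stands far below the others.

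hh_hhf4F, the fourth hh element, ran from 1.26 through 2178 to 4021 CPM in low-GFP libraries of round 2, against 781 through 3274 to 6077 CPM in CD2+ libraries. The lowest library, low-GFP day 6, held 4 reads of it. The low-GFP library was below the CD2+ library on 5 of 6 days, and the fitted log2 change was -0.73 (SE 0.95, edgeR adjusted p = 0.675). nkd_UpE2, whose name follows that of an upstream Wnt-responsive element of nkd, ran from 84.6 through 4378 to 8869 CPM in low-GFP libraries, against 1106 through 2297 to 5230 CPM in CD2+ libraries. It was higher in the low-GFP library on 4 of 6 days and lowest there on day 4, with a log2 change of 0.82 (SE 0.71, edgeR adjusted p = 0.469). Neither passed the test.

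The E. coli control elements, inserts of bacterial DNA carried in both pools, are the background for an insert with no fly sequence. Their mean was lower in low-GFP than in control libraries on 6 of 6 days in each round, and their median fitted log2 change was -2.04 in round 1 against both controls (8 elements tested, from -6.47 to 2.43) and -0.68 in round 2 (12 elements tested). In these comparisons edgeR also called E. coli elements. It called 1 of the 8 higher and 0 lower in round 1, beside 15.9% and 10.1% of all elements. In round 2 it called 0 of the 12 higher and 4 lower, beside 9.03% and 5.16% of all elements. Set against the mean change of the E. coli elements on the same day, hh_4075 stood 4.25 ± 2.02 higher on the log2 scale (SD, n = 6 days). gsb_fragIV stood 2.66 ± 1.23 higher in round 1 and 2.70 ± 0.38 higher in round 2, and nkd_8756 stood at -1.77 ± 1.23. Each of these 4 had its direction on 6 of 6 days, with an exact two-sided sign-flip permutation p = 0.03125, the smallest that 6 days allow, and 0.0781 after adjustment over the 10 tests made. The other 6 tests gave adjusted p-values of 0.1875 to 0.781, among them hh_alpha_fragment_(ic-CRE) with -0.40 ± 0.83 and nkd_IntE_255 with -0.77 ± 3.09.

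**Figure D4:**
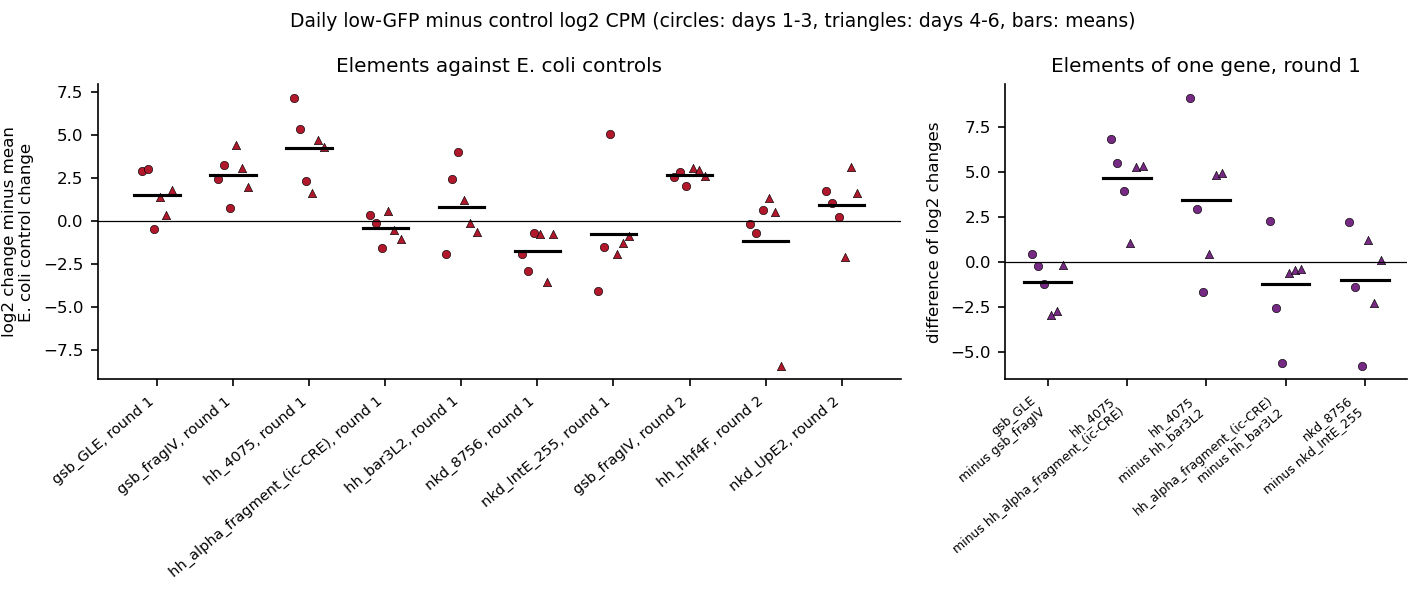
Daily change, low-GFP minus control log2 CPM, of each element minus the mean change of the E. coli control elements (left) and of 1 element minus another of the same gene (right), with 1 point per collection day and bars for the means of 6 days. hh_4075 and gsb_fragIV lie above 0 and nkd_8756 below 0 on all 6 days on the left, and on the right hh_4075 minus hh_alpha_fragment_(ic-CRE) is the pair with all 6 days on one side of 0.

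The experiments of a round were compared through an interaction term. By edgeR, 0 of the 7 elements in round 1 and 0 of the 3 in round 2 passed, with a background of 0.0% in each round. None of these elements had an unadjusted edgeR p under 0.05, against 12 of 358 and 2 of 155 elements in all. DESeq2 called 0 of the 7 and 0 of the 3 too. Over all elements it called 3 higher and 8 lower in round 1, and 0 in either direction in round 2. The difference between experiments was 1.13 (SE 1.00) for gsb_fragIV in round 1, the most positive among the 7, and 0.13 (SE 0.66) in round 2.

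Across the 18 libraries of round 1, which share collection days and pool, the levels of elements of one gene had low correlations. Pearson's r of log2 CPM was 0.45 for gsb_GLE with gsb_fragIV, 0.39 for nkd_8756 with nkd_IntE_255, and -0.32, 0.29 and 0.04 for the hh pairs. Over all elements tested, nvy_CRM100 (r = 0.81) and oc_otd-186 (0.77) were the most like gsb_fragIV, E_0_12h_dCtBP7667.region_1692 (0.69) and sim_mesectoderm (0.60) the most like hh_4075, and ChIPCRM2497 (0.82) and E_0_12h_dCtBP7667.region_3484 (0.79) the most like hh_alpha_fragment_(ic-CRE). For nkd_8756 they were numb_5870 (0.86) and CG12374_CRM41 (0.77), and for nkd_IntE_255 Ecoli_control23 (0.86) and E_0_12h_dCtBP7667.region_1302 (0.80).

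For gsb_GLE they were E_0_12h_dCtBP7667.region_2057 (0.68) and Tl_Tl287 (0.66), and for hh_bar3L2 CG16778_tkr-15 (0.91) and E_0_12h_dCtBP7667.region_2926 (0.87). In the 12 libraries of round 2, pnr_P3 (0.91) and Dll_304 (0.87) were the most like gsb_fragIV, CRM_2048 (0.87) and CAD2_Meso-CRM-6028 (0.69) the most like hh_hhf4F, and BiTS-ChIP_K4me1+K27me3+K27ac_320 (0.98) and E0_12_GROAviva_ChIP_chip.region_590 (0.91) the most like nkd_UpE2. These values describe which inserts were high or low in the same libraries, and no test was made of them.

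The wider pathways are thinly covered by the pool. Of a list of 39 Hedgehog and Wnt pathway genes, 3 have elements in round 1, 8 elements in all, 7 of which are the hh and nkd elements. Against both controls 6 of the 8 were tested, 1 was higher and 4 were lower in low-GFP cells, with a median log2 change of -1.40, beside 15.9% higher, 10.1% lower and a median of -0.61 over all elements tested. The remaining one is fz2_Lac-Z, an element of fz2, which encodes a receptor of Wingless. It was lower in low-GFP cells, with -1.35 (SE 0.44, edgeR adjusted p = 0.0267) against both controls, -1.53 (SE 0.48, 0.0307) against CD2+ and -1.17 (SE 0.48, 0.0935) against CD2-. Its calls were lost without any single one of days 1 to 5 (edgeR adjusted p up to 0.156 against both controls and 0.214 against CD2+), without the low-GFP library of day 4 against both controls (0.0547), and on the E. coli scale, where the change against both controls was -0.59 (0.544). Of a list of 10 segment polarity and segmental transcription factors, 3 have elements in round 1, 4 elements in all. Against both controls 3 of the 4 were tested, and gsb_fragIV was the 1 that passed, beside the same 26.0% of all elements; the median of the 3 was 1.10. In round 2, 0 of 2 elements of the first list and 1 of 2 of the second (again gsb_fragIV) passed, beside 14.2% of all elements.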

How the data were processed

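Libraries of reporter inserts from sorted embryonic cells were grouped by the sort and date in the labels. The series title carries the tag of another assay. The authors deposited counts of reads per barcoded element; DESeq is named in the submitters' processing notes, and its version, the mapper and the build were not given in the sources used here. The log2 fold changes and adjusted p-values quoted as the authors' come from 4 deposited comparison tables.

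Read 1 counts were tested with edgeR 4.0.16 in R 4.3.3 (TMM scaling, filterByExpr with a minimum count of 10, quasi-likelihood test, experiment as covariate, Benjamini-Hochberg over all elements tested, called at an adjusted p under 0.05). Daily differences of log2 CPM (prior count 2) were compared by exact permutation tests in scipy 1.17.1. DESeq2 1.42.0 was an alternative. The fit was tested on simulated data. Depth was 2928510 to 5934098 reads per library, and the log levels of reads 1 and 2 correlated at 0.996 or more.

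All elements named exactly hh, gsb or nkd are described. For each one tested, the 2 elements most correlated with it are named, and of the pathway lists those that passed. Members and lists were chosen with earlier results of these data known. The labels date each library, which pairs the sorts made on 1 day. Deviations from the mean of each population within its experiment correlated above 0.1 in 17 of 18 same-day pairs in round 1 and in 6 of 6 in round 2.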

Additional observations from a re-analysis of the deposited data

Results flagged for a closer look

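In 3 of 27 groups of 6 libraries 1 library stood far from the other 5 by its gap in CPM, not log CPM. Chance alone marks about 1 in 20 groups that share nothing, a rate not checked for values as skewed as CPM. The 27 groups share libraries, and 2 of the 3 marked values come from the same one, so the numbers cannot be set against each other. Libraries near 0 were not marked on this scale. Among them are hh_4075 in CD2+ day 2 (0.907 CPM) and nkd_IntE_255 in CD2+ day 3 (0.444 CPM) of round 1. Another is hh_hhf4F in low-GFP day 6 of round 2 (1.26 CPM). gsb_fragIV had 109404 CPM in the low-GFP library of day 4 of round 1, against 31850 CPM in the next highest low-GFP library. hh_alpha_fragment_(ic-CRE) had 4012 CPM in the same library, against 1953 CPM in the next highest low-GFP library. That library has the lowest TMM factor of the round, 0.360. As plain shares of reads it held 3.94% of gsb_fragIV, against 2.25% in the next highest low-GFP library, and 0.144% of hh_alpha_fragment_(ic-CRE), against 0.130% in the next highest. nkd_8756 had 11208 CPM in the CD2- library of day 6 of round 1, against 4219 CPM in the next highest CD2- library.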

How the results depend on the processing

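The spread between days was large (biological coefficient of variation 1.46 in round 1 and 1.10 in round 2) and limits what 6 libraries can show. Against both controls in round 1, 5 elements were called in all, against 3 with DESeq2's size factors, 2 with libraries scaled to the E. coli elements, 0 in experiment 1 alone, 2 in experiment 2 alone, 2 to 4 when 1 day was left out, and 2 without the low-GFP library of day 4, an alternative chosen after seeing the data. Over all elements tested, 93 were called, against 86 with DESeq2's size factors and 71 on the E. coli scale. Experiments 1 and 2 alone gave 48 and 43 calls over all elements, single days left out 74 to 93, and that library left out 78. Against CD2+, 3 were called, against 5 with DESeq2, 0 in either experiment alone and 1 to 2 without single days. Over all elements, 74 were called there, 107 with DESeq2, 14 and 6 in experiments 1 and 2 alone, and 50 to 71 without single days. Against CD2-, 2 were called, against 0 in either experiment alone and 0 to 3 without single days. Over all elements, 76 were called there, 9 in experiment 1 alone and 0 in experiment 2 alone. Single days left out gave 34 to 48 higher and 17 to 27 lower. In round 2, 1 was called, against 0 in experiment 1 alone, where 7 of all elements were higher and 1 was lower. Experiments taken alone have 3 days each; the cause of the other changes was not tested. With collection day as a replicate block, which pairs the populations by date, the counts were 4, 2, 3, 0 (CD2+ against CD2-) and 1, and the calls that changed stand in the report. Over all elements the block gave 88, 73, 77 and 0 calls in round 1, and 20 higher and 11 lower in round 2.

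The scaling shifts all elements: their median log2 change against both controls was -0.61 with TMM, -0.29 with DESeq2's size factors, -1.23 with total counts and 0.33 with the E. coli elements. Uncalled elements changed sign under some settings. gsb_GLE had -0.51 (both controls), -0.53 (CD2+) and -0.48 (CD2-) with total counts, and -0.15 against CD2+ in experiment 2. hh_bar3L2 had 0.13 against both controls and 0.56 against CD2+ with E. coli scaling, and against CD2+ 0.17 with DESeq2 and with its size factors, 0.77 in experiment 1, and -1.32 to 0.31 without single days. With E. coli scaling hh_alpha_fragment_(ic-CRE) had 0.27 against CD2- and hh_hhf4F 0.21 in round 2. Between CD2+ and CD2-, hh_4075 had -0.063 with total counts, -0.44 with the block and -0.49 in experiment 1, gsb_GLE -0.22 in experiment 1 and nkd_8756 -0.27 in experiment 2. In that comparison single days left out gave -0.78 to 0.63 for nkd_8756, -0.093 to 0.45 for gsb_GLE, -0.040 to 0.87 for gsb_fragIV and -0.13 to 0.37 for hh_4075. Of the other values for single elements, fz2_Lac-Z included, 471 kept direction and side of the threshold, 97 lost a call and 17 gained one. A call could be lost only where the main fit made one, while the 471 include elements called in no main fit. The 471 and 97 therefore do not give the share of calls that held.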
